A study of Mus musculus with 16 samples.

Results

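Calcium handling by gut epithelium was followed through 9 genes out of the 36118 gene IDs in each deposited table. They are the TRPV channel genes Trpv6, Trpv3, Trpv2 and Trpv4, the calcium buffer gene S100g, the calcium pump gene Atp2b1, the vitamin D receptor gene Vdr, the vitamin D-degrading enzyme gene Cyp24a1 and the calcium-sensing receptor gene Casr. They were chosen by their role together with their measured counts at high and low Neu5Gc in both tissues, so that the differences between these groups, those of Trpv6 and Trpv3 above all, were in view. Their values at high and low Neu5Gc are therefore given as descriptions, without p-values, and tests are kept for the comparison of tissues and for other genes of the pathway.

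The study gave N-glycolylneuraminic acid (Neu5Gc), a sialic acid that mice make and humans do not, in the drinking water of male APCMin/+ mice aged 8 weeks, and its title asks about genes related to colorectal cancer. Every mouse carried the Min allele of Apc, a truncating mutation that leads to intestinal adenomas, and every mouse received Neu5Gc, at 0.2535 mg/ml in the high group or 0.0127 mg/ml in the low group, for 14 days. Bulk RNA-seq was made of the colorectum (6 high and 4 low libraries by the sample labels) and the liver (3 high and 3 low libraries). The design text of the series gives 6 control and 4 treated mice instead, and the groups used here follow the sample labels. If the labels of the colorectum were exchanged, every colorectum direction at high against low Neu5Gc would turn round. The labels name neither the stretch of colorectum taken nor whether it held adenoma, and do not tie a library to a mouse, so the p-values measure the spread between these libraries.

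In the intestine, absorbed calcium enters epithelial cells through TRPV6 at the lumen side, is carried through the cytosol by the small calbindin encoded by S100g, and leaves on the blood side through the pump encoded by Atp2b1. The active vitamin D hormone acts through the receptor VDR, which is known to raise Trpv6 and S100g in the gut, and which also raises Cyp24a1, whose product breaks the hormone down. Extracellular calcium is sensed by the receptor encoded by Casr. TRPV3, TRPV2 and TRPV4 are calcium-permeable cation channels: TRPV3 is best known from skin keratinocytes as a warmth sensor, TRPV2 from macrophages and neurons, and TRPV4 as a sensor of osmotic and mechanical stimuli.

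The promoters of Trpv6, Trpv3 and S100g are shown because Trpv6 and Trpv3 separated the colorectum groups and S100g is the partner of Trpv6 in calcium absorption. Each window runs from 250 bases before to 50 bases after the annotated start (RefSeq, build GRCm38.p6), is printed 5′ to 3′ on the gene's own strand, and has in capitals every AGGTCA, a half-site bound by many nuclear receptors (TGACCT where it lies on the opposite strand), and every TATAAA, the core of the TATA box. Trpv6 lies on the minus strand at chr6:41636356-41636655, Trpv3 on the plus strand at chr11:73267270-73267569 and S100g on the minus strand at chrX:162964550-162964849.
Trpv6: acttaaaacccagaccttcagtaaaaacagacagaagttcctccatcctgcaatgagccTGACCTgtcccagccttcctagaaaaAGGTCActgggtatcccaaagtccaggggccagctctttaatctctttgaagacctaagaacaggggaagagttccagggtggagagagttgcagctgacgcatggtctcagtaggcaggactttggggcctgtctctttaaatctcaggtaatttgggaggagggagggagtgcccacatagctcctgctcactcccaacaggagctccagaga
Trpv3: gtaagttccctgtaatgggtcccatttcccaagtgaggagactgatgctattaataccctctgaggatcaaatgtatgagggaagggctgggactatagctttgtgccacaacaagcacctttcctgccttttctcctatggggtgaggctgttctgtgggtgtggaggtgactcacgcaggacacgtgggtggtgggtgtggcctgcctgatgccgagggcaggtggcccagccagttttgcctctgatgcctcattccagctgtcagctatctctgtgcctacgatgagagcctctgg
S100g: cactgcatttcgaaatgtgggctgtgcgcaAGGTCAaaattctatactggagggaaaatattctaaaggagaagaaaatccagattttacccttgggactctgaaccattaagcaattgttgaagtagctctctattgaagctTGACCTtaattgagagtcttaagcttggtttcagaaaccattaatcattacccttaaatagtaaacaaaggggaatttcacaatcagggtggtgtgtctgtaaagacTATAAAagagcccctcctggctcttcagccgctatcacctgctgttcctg

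The Trpv6 window held 2 AGGTCA half-sites, starting at -191 on the opposite strand and at -165 on the gene's strand, counted from the start site. The S100g window also held 2, at -220 on the gene's strand and at -107 on the opposite strand, and a TATAAA at position 1 after the annotated start. Neither motif was found in the Trpv3 window. Searched on both strands, AGGTCA occurred in 16.3% and TATAAA in 13.6% of the 32851 RefSeq promoter windows of this length. CAATAAA, the caudal homeobox motif, occurred in 4.6%, and the vitamin D response element in 0.0396%. The response element was searched as 2 half-sites spaced by 3 bases, each A or G, then G, then G or T, then TCA. Neither CAATAAA nor the response element was found in the 3 windows shown, and the response element is absent from nearly all windows. The windows had 51.3% GC for Trpv6, 54.7% for Trpv3 and 41.0% for S100g, against a median of 52.7% over all windows. An entry was found for 8 of the 9 genes, which left Cyp24a1 without one.

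Total estimated counts per library, in units of 1e6, were 46.1 to 70.7 in high and 48.3 to 73.9 in low colorectum libraries, and 68.8 to 86.1 in high and 47.5 to 55.9 in low liver libraries, so that liver depths did not overlap between groups. Levels below are counts per 1e6 of the library total after TMM scaling within a tissue (CPM). A count of 0 allows up to 3 counts, which is 0.0445 to 0.0691 CPM in high and 0.0379 to 0.0593 CPM in low colorectum libraries, for counting error only. Of 9 intestinal epithelium markers, all exceeded 1 CPM in every colorectum library, with a sum of 12000 to 18800 CPM in high and 9420 to 12100 CPM in low libraries. A pair of low colorectum libraries stood apart. Low library 4 held 14100 CPM of 13 kidney tubule genes, 1110 CPM of the kidney gene Umod and 6550 CPM of Kap included, where the same sum was 9.97 to 58.5 CPM in the high and 6.91 to 27.3 CPM in the other low libraries. Low library 3 held 4200 CPM of 11 pancreatic acinar genes, against 5.94 to 32.9 CPM in the high and 21.9 to 36.6 CPM in the other low libraries. The hepatocyte list was also up in low library 4, at 1710 CPM, against 175 to 249 CPM in the high and 173 to 233 CPM in the other low libraries. In the liver, the pancreatic acinar genes summed to 3190 CPM in high library 1 and 7730 CPM in low library 1, against 1.3 and 10.9 CPM in the other high and 3.4 and 3.06 CPM in the other low libraries. Colorectum results that rest on low library 3 or 4 are given with and without it. In bulk tissue, fewer cells of a type and less RNA per cell cannot be told apart.

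**Figure D1:**
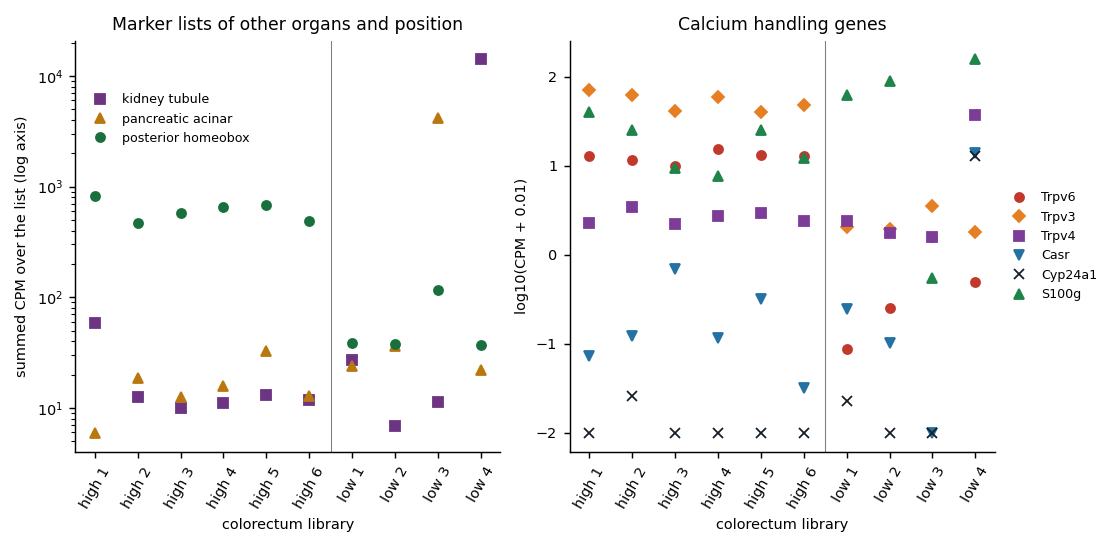
Summed CPM of 3 marker gene lists (left, log axis) and log10 CPM, plus a small offset, of 6 calcium handling genes (right) in each colorectum library along the x axis, high Neu5Gc left of low Neu5Gc. Low library 4 stands at 14100 CPM of kidney tubule genes and low library 3 at 4200 CPM of pancreatic acinar genes, and the 6 high libraries hold 472 to 820 CPM of posterior homeobox genes against 36.9 to 116 CPM in the low libraries.

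In the colorectum, the channels Trpv6 and Trpv3 were higher in all 6 high Neu5Gc libraries than in any low library, and none of the other 7 genes separated the groups. These were also the genes called by the edgeR quasi-likelihood fit across all genes, 2 of the 8 that passed its count filter. Over all genes tested, 15.5% were called at an adjusted p under 0.05, 7.29% as higher and 8.21% as lower. The groups did not overlap for 14.1%, with the high libraries above for 7.71% and below for 6.35%. Since that contrast chose the genes, nothing is read from these counts.

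Trpv6, the channel of luminal calcium entry (ENSMUSG00000029868, chromosome 6), had 12.9, 11.6, 9.96, 15.5, 13.2 and 13 CPM in high libraries 1 to 6 and 0.0771, 0.241, 1.58 and 0.492 CPM in low libraries 1 to 4. All high libraries lay close together, with a coefficient of variation of 14.4%, whereas the low libraries spread over a wide range from the 6.1 counts of library 1 to the 80.1 counts of library 3. The mean was 12.7 ± 1.84 CPM in the high libraries (SD, n = 6) and 0.599 ± 0.679 CPM in the low libraries (SD, n = 4), a ratio of means of 21.2. The fitted log2 difference, high minus low, was 4.43 (SE 0.70). It was 5.57 without low library 3, 4.37 without low library 4 and 6.40 without both, so that its size rested in part on low library 3.

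Trpv3, the keratinocyte channel (ENSMUSG00000043029, chromosome 11), had 71.1, 63.0, 41.6, 59.0, 40.6 and 48.9 CPM in high libraries 1 to 6 and 2.06, 1.93, 3.55 and 1.82 CPM in low libraries 1 to 4. The lowest high library stood far above the highest low library, which was again low library 3. Means were 54.1 ± 12.3 CPM at high Neu5Gc (SD, n = 6) and 2.34 ± 0.811 CPM at low Neu5Gc (SD, n = 4), with a log2 difference of 4.53 (SE 0.27). Without low library 3 the difference was 4.80, without low library 4 it was 4.42, and without both it was 4.72. Squamous epithelium, the tissue in which TRPV3 is best known, was represented by 9 markers that summed to 6.13 to 8.74 CPM in high and 1.09 to 7.98 CPM in low libraries.

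Other lists were read beside these channels. The 6 posterior homeobox genes, which are expressed towards the hind end of the gut, summed to 472 to 820 CPM in high libraries, to 36.9 to 38.4 CPM in low libraries 1, 2 and 4 and to 116 CPM in low library 3, the low library with the most Trpv6 and Trpv3. Members of this list differed in low library 3. Hoxb13, Hoxa13 and Hoxd13 were highest of the low group there, at 63.1, 48.2 and 2.56 CPM. Hoxd11 and Hoxd10 were lowest of the low group there, at 1.08 and 1.26 CPM, and Hoxd12 had at most 0.0465 CPM in any low library. The 8 small intestinal enterocyte genes summed to 28.2 to 169 CPM in high and 211 to 366 CPM in low libraries, without overlap. The 8 male accessory gland genes summed to 138 to 370 CPM in high and 19.4 to 173 CPM in low libraries, with overlap. Most of the low sums came from Spink1, at 25.6, 36.2, 16.4 and 172 CPM in low libraries 1 to 4. Spink1 reached 368 CPM in a high library, whereas Svs2, Svs4 and Svs5 stayed at or below 0.488 CPM in every colorectum library. Pbsn, a prostate secretory gene, reached 90.7 CPM in a high library and was at 0 in all low libraries. The part of these differences in the levels of Trpv6 and Trpv3 was not tested.

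**Figure D2:**
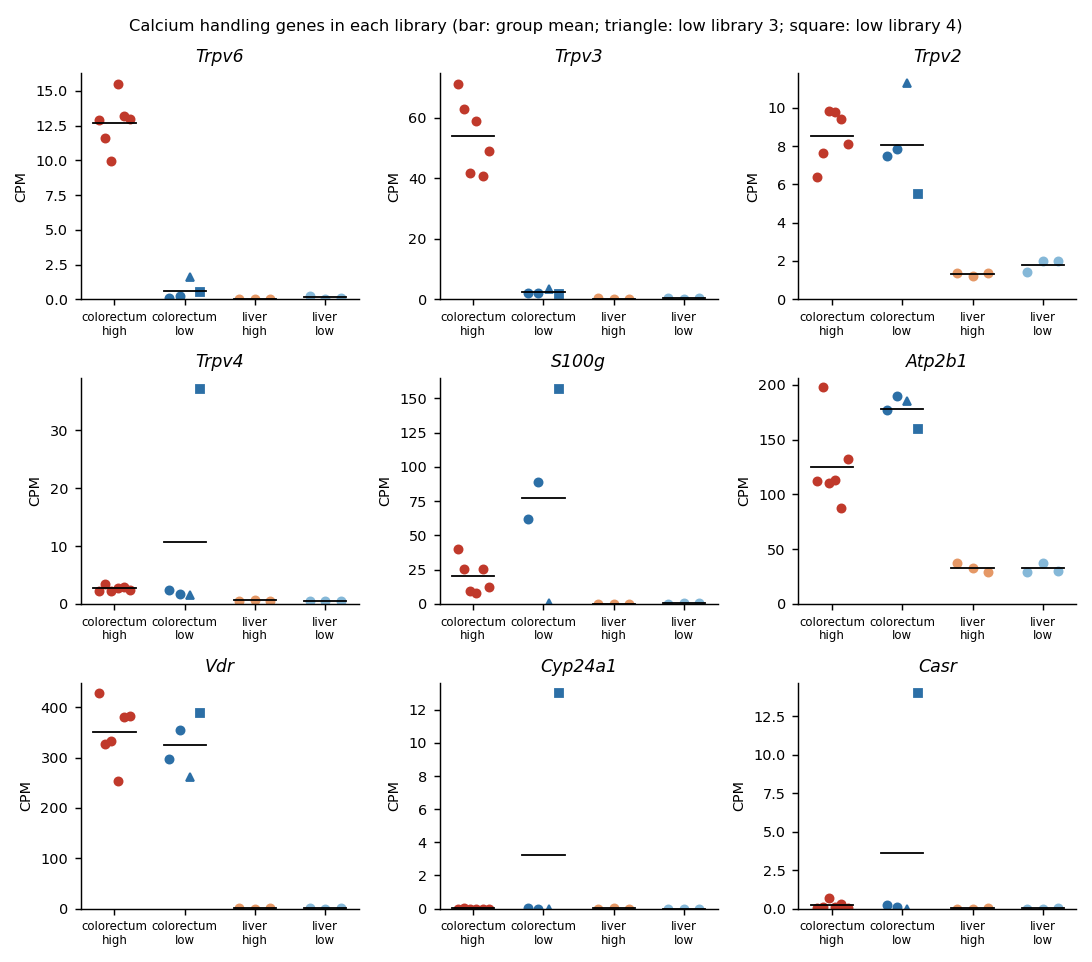
CPM (linear axis from 0) of the 9 genes in each library, colorectum and liver, with high Neu5Gc left of low Neu5Gc, each point 1 library, the bar the group mean, low colorectum library 3 a triangle and library 4 a square. Trpv6 and Trpv3 separate the colorectum groups, Trpv4, Cyp24a1 and Casr are high in low library 4 alone, and S100g is lowest in low library 3.

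Trpv2, the channel known from macrophages (ENSMUSG00000018507, chromosome 11), had 6.39 to 9.85 CPM in the high colorectum libraries with a median of 8.74, and 7.46, 7.87, 11.3 and 5.5 CPM in low libraries 1 to 4. The high range lay within the low range, and the log2 difference was 0.08 (SE 0.21). The 8 macrophage markers summed to 391 to 566 CPM in high and 274 to 405 CPM in low libraries.

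Trpv4, the osmotic and mechanical sensor (ENSMUSG00000014158, chromosome 5), had 2.29, 3.45, 2.21, 2.75, 2.92 and 2.38 CPM in high libraries 1 to 6 and 2.38, 1.75, 1.56 and 37.2 CPM in low libraries 1 to 4. A single library, low library 4 with the kidney genes, stood above all others, and the remaining low libraries overlapped the high ones. The mean was 2.67 ± 0.471 CPM at high Neu5Gc (SD, n = 6) and 10.7 ± 17.7 CPM at low Neu5Gc (SD, n = 4), or 1.90 ± 0.430 CPM over the 3 low libraries without library 4. The log2 difference accordingly was -2.01 (SE 0.84) with that library, 0.47 without it and 0.33 without libraries 3 and 4.

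S100g, the cytosolic calcium carrier of enterocytes (ENSMUSG00000040808, chromosome X), had 40.4, 25.5, 9.47, 7.70, 25.4 and 12.4 CPM in high libraries 1 to 6 and 61.8, 88.9, 0.543 and 157 CPM in low libraries 1 to 4. Low library 3, at 27.5 counts, was below every high library, while the other 3 low libraries were above every high library. Means were 20.1 ± 12.6 CPM at high Neu5Gc (SD, n = 6) and 77.2 ± 65.0 CPM at low Neu5Gc (SD, n = 4), or 103 ± 49.3 CPM over the 3 low libraries without library 3. The log2 difference was -1.94 (SE 0.98), -2.35 without low library 3, -1.35 without low library 4 and -1.94 without both. Low library 3 thus had the highest Trpv6 and the lowest S100g of its group.

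Atp2b1, the plasma membrane calcium pump (ENSMUSG00000019943, chromosome 10), had 112, 198, 110, 113, 87.9 and 132 CPM in high libraries 1 to 6 and 177, 190, 185 and 160 CPM in low libraries 1 to 4. High library 2 was the highest of all 10 libraries and the other 5 high libraries were below every low library. The log2 difference was -0.51 (SE 0.19), and -0.69 without high library 2.

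Vdr, the vitamin D receptor (ENSMUSG00000022479, chromosome 15), had 253 to 428 CPM in high libraries with a median of 357, and 298, 354, 261 and 389 CPM in low libraries 1 to 4. The groups overlapped over nearly their whole range, with 351 ± 60.5 CPM at high Neu5Gc (SD, n = 6), 325 ± 57.1 CPM at low Neu5Gc (SD, n = 4) and a log2 difference of 0.11 (SE 0.16).

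Cyp24a1, the enzyme that inactivates the vitamin D hormone (ENSMUSG00000038567, chromosome 2), had 839.5 counts in low library 4, 1.0 count each in low library 1 and high library 2, and 0 in every other colorectum library. It did not pass the count filter. An exon of Pfdn4 on the opposite strand overlaps it in the annotation, and since the counting is not stated to use strand, reads from the overlapping stretch cannot be told apart. Casr, the calcium-sensing receptor (ENSMUSG00000051980, chromosome 16), had 0.0216 to 0.688 CPM in high libraries with a median of 0.110, and 0.238, 0.0914, 0 and 14.0 CPM in low libraries 1 to 4. Its 901 counts in low library 4 gave a log2 difference of -4.0 (SE 1.58), which became 0.87 without that library and 0.32 without libraries 3 and 4. Both genes, like Trpv4, were high only in the library with the kidney tubule genes. Outside that library the kidney list summed to at most 58.5 CPM, and Cyp24a1 had at most 1.0 count. Casr and Cyp24a1 are known to be expressed in kidney tubule, and the part of kidney tubule RNA in these values was not tested.

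**Figure D3:**
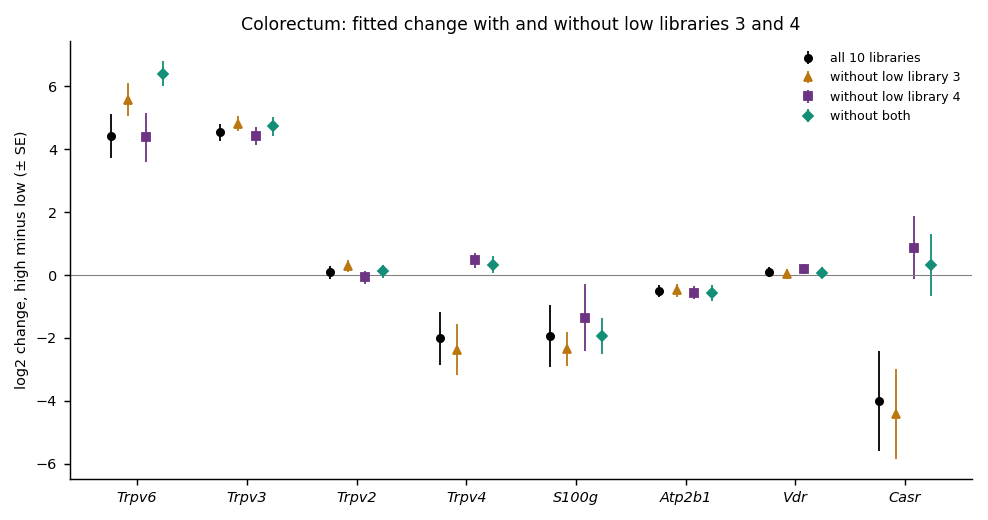
Fitted log2 difference in the colorectum, high minus low Neu5Gc, for each of the 8 genes that passed the count filter, with all libraries and without low library 3, without low library 4 or without both, bars showing the SE. Trpv6 and Trpv3 stay above 4 in each fit, while Trpv4 and Casr turn from -2.01 and -4.0 to 0.47 and 0.87 without low library 4.

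Levels per length, in TPM, place these genes on 1 scale within a tissue. In high colorectum libraries the order of the mean TPM was Vdr (108 ± 12.9), S100g (94.1 ± 56.2), Atp2b1 (33.6 ± 12.9), Trpv3 (10.9 ± 2.79), Trpv6 (5.37 ± 0.881), Trpv2 (4.42 ± 0.903), Trpv4 (1.10 ± 0.275), Casr (0.077 ± 0.0905) and Cyp24a1 (SD, n = 6), the last with 1.0 count in 1 library. The ranges of Vdr and S100g overlapped, as did those of Trpv6 and Trpv2, and Trpv3 lay above Trpv6 without overlap. In low colorectum libraries S100g had 333, 477, 2.53 and 747 TPM in libraries 1 to 4, Vdr had 79.8 to 124 TPM and Atp2b1 42.2 to 56.7 TPM. There Trpv3, at 0.495 ± 0.145 TPM, and Trpv6, at 0.255 ± 0.278 TPM (SD, n = 4), overlapped, with Trpv2 above them at 4.39 ± 1.20 TPM. The means of Trpv4, Casr and Cyp24a1 in low libraries rest on library 4, at 15.2, 4.87 and 4.42 TPM. In low libraries 1 to 3, Casr had 0.094, 0.0359 and 0 TPM and Cyp24a1 0.00486, 0 and 0 TPM, each below Trpv3. In the high liver libraries Atp2b1 led at 8.29 ± 1.63 TPM, before Trpv2 at 0.583 ± 0.0541 TPM and Trpv4 at 0.227 ± 0.0401 TPM (SD, n = 3). In the low liver libraries Atp2b1 had 9.35 ± 1.86 TPM, S100g 2.33 ± 2.24 TPM, Trpv2 0.914 ± 0.220 TPM and Trpv4 0.213 ± 0.018 TPM (SD, n = 3), with S100g and Trpv2 overlapping.

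In the liver, 4 of the 9 genes passed the count filter (Trpv2, Trpv3, Trpv4 and Atp2b1) and none was called at high against low Neu5Gc, where 6.47% of all genes tested were called, 3.15% as higher and 3.32% as lower. Vdr stayed between 0.0218 and 0.130 CPM in high and between 0.0629 and 0.276 CPM in low liver libraries. Trpv6 had 0.0418, 0 and 0 CPM in high libraries 1 to 3 and 0.254, 0.0338 and 0.0963 CPM in low libraries 1 to 3, and Casr and Cyp24a1 had at most 1.1 counts in any liver library. These levels, and those of S100g in the high libraries, are near the floor of 0.0362 to 0.0433 CPM in high and 0.0524 to 0.0597 CPM in low liver libraries.

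Atp2b1 was the most abundant of the 9 in the liver, with 37.5, 32.6 and 28.9 CPM in high libraries 1 to 3 and 29.2, 37.8 and 30.1 CPM in low libraries 1 to 3, a log2 difference of 0.03 (SE 0.13). Trpv3, at 0.287, 0.181 and 0.225 CPM in high and 0.259, 0.174 and 0.337 CPM in low libraries 1 to 3, also overlapped (log2 difference -0.15, SE 0.40). The groups did not overlap for 3 genes, where 28.6% of all liver genes tested did not overlap, 14.5% with the high libraries above and 14.1% below. S100g was lower, with 0.0284, 0.0359 and 0.0248 CPM in high and 0.0731, 0.311 and 0.817 CPM in low libraries 1 to 3, from 2.0, 3.0 and 2.0 counts in the high and 4.0, 17.8 and 41.1 counts in the low libraries. Trpv2 had 1.39, 1.23 and 1.39 CPM in high and 1.43, 2.0 and 1.98 CPM in low libraries (log2 difference -0.43, SE 0.22), and Trpv4 0.568, 0.704 and 0.533 CPM in high and 0.513, 0.444 and 0.521 CPM in low libraries (log2 difference 0.29, SE 0.29). Without TMM scaling, Trpv2 and Trpv4 overlapped between the groups. The 9 intestinal epithelium markers, which lay on the same side as S100g, summed to 314 to 402 CPM in high and 453 to 492 CPM in low liver libraries. Other lists lay on that side too. The 8 macrophage markers summed to 281 to 352 CPM in high and 401 to 431 CPM in low libraries, the 4 endothelial markers to 89.4 to 111 CPM in high and 117 to 130 CPM in low libraries, and the 8 smooth muscle markers to 32.2 to 40.5 CPM in high and 40.8 to 52.0 CPM in low libraries. The part of these lists in the S100g and Trpv2 values was not tested.

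The comparison of colorectum with liver at low Neu5Gc used no high library, though its low libraries also entered the choice of the genes. In that fit of 7 libraries, 62.7% of all genes differed at an adjusted p under 0.05, 33.8% as higher and 28.9% as lower in the colorectum, and 5 of the 7 genes tested were called, all of them higher. Vdr, S100g and Trpv6 did not pass the count filter among the liver libraries and entered this fit through their colorectum counts. A call of Vdr or S100g could therefore hardly be other than higher. Nothing is read from the number or direction of these calls. Vdr had 325 ± 57.1 CPM in the colorectum (SD, n = 4) and 0.146 ± 0.114 CPM in the liver (SD, n = 3), each scaled within its tissue, and its log2 difference, colorectum minus liver, was 9.83 (SE 0.57, edgeR adjusted p = 5.03e-06). Every low colorectum library was above every low liver library for Vdr, as for Atp2b1, Trpv3, Trpv2 and Trpv4. Atp2b1 was higher by a log2 of 1.17 (SE 0.15, edgeR adjusted p = 0.000265) and Trpv3 by 1.89 (SE 0.39, edgeR adjusted p = 0.00352). Vdr, Atp2b1 and Trpv3 kept their call in each of the 7 fits without 1 library.

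S100g was higher in the colorectum by a log2 of 6.30 (SE 1.91, edgeR adjusted p = 0.0278) and was called in 4 of 7 fits without 1 library, the exceptions being those without liver low library 1, 2 or 3 (adjusted p up to 0.0848). The overlap here was low colorectum library 3 at 0.543 CPM and low liver library 3 at 0.817 CPM. Trpv2 was higher by 0.86 (SE 0.29, edgeR adjusted p = 0.0299) and was called in 2 of 7 fits without 1 library, with adjusted p up to 0.104 and the call lost without colorectum low library 1 or 2 or any 1 liver library. Trpv4 had a log2 difference of 3.14 (SE 1.39, edgeR adjusted p = 0.0883), which was 0.67 without low colorectum library 4, and Trpv6 one of 0.87 (SE 1.07, edgeR adjusted p = 0.501). At low Neu5Gc, Trpv6 in the colorectum was therefore not shown to differ from its level in the liver, where it was 0.0338 to 0.254 CPM. On log2(TPM + 1) the median of all genes was 0.98, against 0.08 on TMM-scaled counts, and Vdr, S100g, Atp2b1, Trpv2 and Trpv4 stood at 6.68, 5.66, 2.31, 1.47 and 1.38. Trpv3 did not pass the TPM filter there, and with no TPM filter it stood at 0.50, near that fit's median of all genes of 0.415.

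Genes with the profile most like each of the 3 leading genes were sought among 11920 genes averaging at least 5 CPM. The measure was the root mean square (RMS) of the difference in log2(CPM + 1), centred per gene, over the 10 colorectum libraries. These libraries share the same groups, and low libraries 3 and 4 stood apart by their pancreatic acinar and kidney tubule genes. Adding 1 understates differences at low CPM, such as those of Trpv6 at low Neu5Gc. For Trpv3 the nearest genes were Slc15a1 (RMS 0.303), a peptide transporter, Trpv6 (RMS 0.51) and Pla2g4f (RMS 0.564), a phospholipase. Slc15a1 had 83.9 ± 32.1 CPM at high Neu5Gc (SD, n = 6) and 5.89 ± 1.93 CPM at low Neu5Gc (SD, n = 4), with 8.67 CPM in low library 3. For Trpv6 they were Tcf7l1 (RMS 0.205), a Wnt pathway transcription factor, Nxpe4 (RMS 0.349) and Pla2g4f (RMS 0.355), and each was again highest in library 3 among the low libraries, Tcf7l1 at 24.0 CPM against a low mean of 15.6 ± 5.65 CPM (SD, n = 4). No gene came as close to S100g, whose nearest profiles were Slc15a2, another peptide transporter, at an RMS of 1.11, Aspg at 1.159 and Hoxd4 at 1.17.

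Beyond the 9 genes, 121 genes of calcium and vitamin D biology were read in 5 lists. In the colorectum, 109 were tested and 29 were called (26.6%, against 15.5% of all genes), 13 as higher and 16 as lower, with a median log2 difference of -0.11 where the median of all genes was -0.015. Without low library 4, 22 were called, 19 of them among the 29, and 12.1% of all genes were called. Without low library 3 the number was 42 (24 of the 29, against 20.1% of all genes), and without both it was 25 (17 of the 29, against 11.4%). Of the 29 genes, 15 were called in each of the 10 fits without 1 library.

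Calcium entry, binding and extrusion made up the first list, with 34 genes. Of these, 31 were tested, 4 rose and 6 fell (32.3% called, against 15.5% of all genes, median log2 difference -0.20). Trpv1, the capsaicin receptor and a neighbour of Trpv3 on the same strand of chromosome 11, rose, with 1.06 to 1.63 CPM in high libraries (median 1.36) and 0.104, 0.206, 0.0404 and 0.0636 CPM in low libraries 1 to 4 (log2 difference 3.69, SE 0.42, edgeR adjusted p = 0.000387). The groups did not overlap, and unlike Trpv3 the lowest value was that of low library 3. Trpv1 passed the count filter through its high libraries, so a call of it could hardly be other than higher. Trpv5, the kidney channel that neighbours Trpv6 on chromosome 6, had 3.83 CPM in low library 4 and at most 0.0584 CPM in the other colorectum libraries, and was not tested.

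Sodium-calcium exchangers moved in different directions. Slc8a1, the exchanger of muscle and nerve membranes, fell, with 15.0 to 26.9 CPM in high and 92.3 to 120 CPM in low libraries (log2 difference -2.26, SE 0.16, edgeR adjusted p = 2.94e-05). Slc8b1, the mitochondrial exchanger, rose, with 67.7 to 102 CPM in high and 30.8 to 38.6 CPM in low libraries (log2 difference 1.40, SE 0.13, edgeR adjusted p = 0.000125). The smooth muscle markers summed to 3200 to 5790 CPM in high and 3610 to 6240 CPM in low libraries, with overlap. The 7 skeletal muscle markers summed to 11.5 to 22.7 CPM in high and 27.1 to 51.1 CPM in low libraries, without overlap. The part of muscle RNA in the level of Slc8a1 was not tested. A further exchanger, Slc8a3, fell by 1.06 (SE 0.29, edgeR adjusted p = 0.0319), a call held in 4 of 10 fits without 1 library. Trpa1, an irritant-sensing channel, fell by 1.66 (SE 0.39, edgeR adjusted p = 0.0172). S100a10, an annexin partner, rose by 0.63 (SE 0.15, edgeR adjusted p = 0.0162). Both were called in each of the 10 fits without 1 library. Without both low libraries 3 and 4, S100a10 stood at 0.43 (edgeR adjusted p = 0.121). The remaining calls were Mcoln3, an endolysosomal channel, at -2.84 (edgeR adjusted p = 0.0182, and -1.62 with adjusted p = 0.0549 without low library 4), and Calm2, a calmodulin gene, at 0.40 (edgeR adjusted p = 0.0379, held in 3 of 10 fits). Cldn15, a cation-permeable claudin of the tight junction, fell (log2 difference -1.03, SE 0.20, edgeR adjusted p = 0.00687), and so did the second plasma membrane pump Atp2b4 (log2 difference -0.80, SE 0.21, edgeR adjusted p = 0.0288), a call that held in 4 of 10 fits without 1 library. Cldn2, another cation-permeable claudin, had a log2 difference of -0.01 (SE 0.22). Calb1, the large calbindin of the kidney, had 64.8 CPM in low library 4 and a log2 difference of -6.39 (SE 1.93, edgeR adjusted p = 0.053), which was 0.33 without that library.

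**Figure D4:**
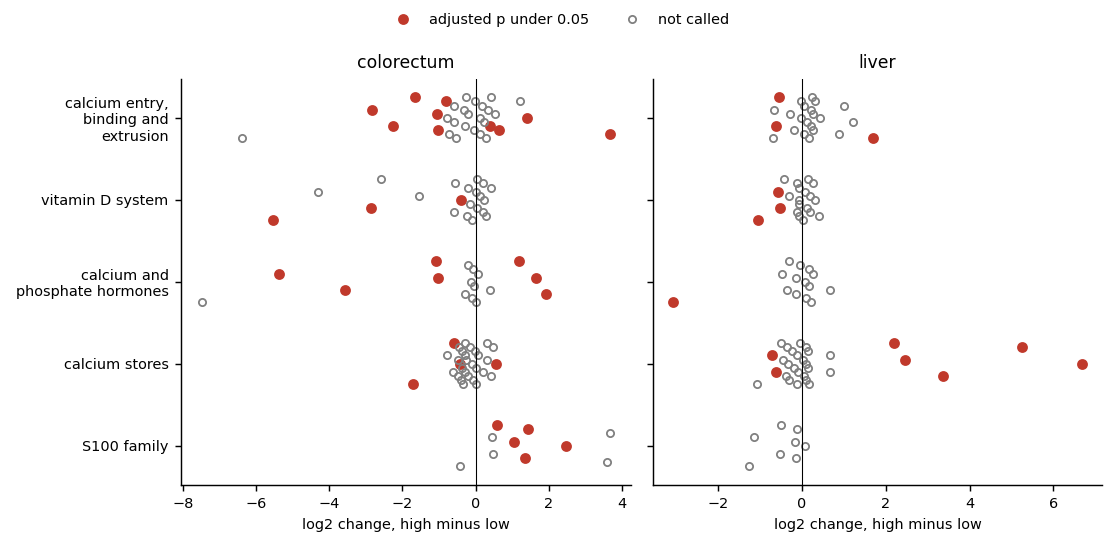
Fitted log2 difference, high minus low Neu5Gc, of the tested genes of the 5 calcium and vitamin D lists in the colorectum and the liver, each point 1 gene, with filled points for genes called at an adjusted p under 0.05. In the colorectum all 5 called S100 genes lie above 0, and in the liver 5 of the 7 called calcium store genes do.

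Of the 21 vitamin D genes, all were tested in the colorectum, none rose and 3 fell (median log2 difference -0.16), which is 14.3% called and near the 15.5% of all genes. These were Rxra, the partner receptor of VDR (log2 difference -0.40, SE 0.12, edgeR adjusted p = 0.0478), Cyp3a11, a drug- and hormone-metabolising enzyme (log2 difference -2.85, SE 0.80, edgeR adjusted p = 0.0376), and Lrp2, the kidney receptor megalin (log2 difference -5.53, SE 1.55, edgeR adjusted p = 0.0425). Without low library 4, the one high in the kidney and hepatocyte lists, the log2 differences were -0.28, -0.95 and -0.26, with edgeR adjusted p of 0.115, 0.16 and 0.691. Cyp27b1, which makes the active hormone, had 0.285 to 0.775 CPM in high and 0.443 to 1.14 CPM in low libraries (edgeR adjusted p = 0.326).

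Of 23 genes of calcium and phosphate hormones, 17 were tested, 3 rose and 4 fell (41.2% called, against 15.5% of all genes, median log2 difference -0.10). Slc20a1, a sodium-phosphate carrier, rose, with 230 to 631 CPM in high and 81.5 to 153 CPM in low libraries (log2 difference 1.94, SE 0.29, edgeR adjusted p = 0.00197). Pthlh, the parathyroid hormone-related peptide, rose, with 0.985 to 2.38 CPM in high and 0.314 to 0.626 CPM in low libraries (log2 difference 1.66, SE 0.32, edgeR adjusted p = 0.00725). Stc2, a stanniocalcin, fell (log2 difference -1.02, SE 0.18, edgeR adjusted p = 0.00377), as did Calcrl, part of the receptor for calcitonin gene-related peptide (log2 difference -1.07, SE 0.23, edgeR adjusted p = 0.0115). Kl, the kidney hormone co-receptor klotho, was called at a log2 difference of -5.39 (edgeR adjusted p = 0.0468) and stood at -0.04 without low library 4 (adjusted p = 0.954). Pth1r, the parathyroid hormone receptor, was called at -3.58 (edgeR adjusted p = 0.0382) and stood at -0.71 without low library 4 (adjusted p = 0.0162). Slc34a2, the phosphate carrier of epithelial surfaces, rose by 1.19 (SE 0.36, edgeR adjusted p = 0.0477), a call held in 2 of 10 fits without 1 library.

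Of 31 calcium store genes, 30 were tested, 1 rose and 3 fell (median log2 difference -0.26), which is 13.3% called and near the 15.5% of all genes. Pln, the phospholamban that restrains the store pump, fell, with 4.46 to 8.33 CPM in high and 16.5 to 22.2 CPM in low libraries (log2 difference -1.70, SE 0.18, edgeR adjusted p = 0.00027). Stim2, a sensor of store calcium, fell by 0.58 (SE 0.15, edgeR adjusted p = 0.0235). The secretory pathway pumps Atp2c2 and Atp2c1 were called in opposite directions, at log2 differences of 0.57 (SE 0.17, edgeR adjusted p = 0.0457) and -0.43 (SE 0.13, edgeR adjusted p = 0.0462). These calls held in 3 of 10 fits without 1 library for Atp2c2 and in 1 of 10 for Atp2c1.

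Of 12 further S100 genes, relatives of S100g in sequence, 10 were tested, 5 rose and 0 fell (median log2 difference 1.20). S100a14 had 142 to 250 CPM in high and 23.5 to 48.5 CPM in low libraries (log2 difference 2.48, SE 0.23, edgeR adjusted p = 0.000131). S100a16 had 223 to 367 CPM in high and 99.7 to 138 CPM in low libraries (log2 difference 1.43, SE 0.18, edgeR adjusted p = 0.000559). S100a6 rose by 1.35 (SE 0.25, edgeR adjusted p = 0.00545) and S100a4 by 1.06 (SE 0.25, edgeR adjusted p = 0.018). These 4 were called in all 10 fits without 1 library, whereas S100a13 was called in 0 of 10. Without both low libraries 3 and 4, S100a4 stood at 0.76 (edgeR adjusted p = 0.0679).

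In the liver, 95 of the 121 genes were tested and 14 were called (14.7%, against 6.47% of all genes), 6 as higher and 8 as lower. Called among the store genes were 5 that rose, Ryr1, Atp2a1, Sln, Casq1 and Casq2, which form the calcium release and re-uptake machinery of striated muscle. Atp2a1 had 19.9 to 25.9 CPM in high and 0.136 to 0.873 CPM in low libraries (log2 difference 5.24, SE 0.46, edgeR adjusted p = 0.00207), and 7 skeletal muscle markers summed to 119 to 164 CPM in high and 1.34 to 9.02 CPM in low liver libraries, whose part in these values was not tested. Sln, at 0.487 to 1.4 CPM in high and at most 0.0199 CPM in low liver libraries, passed the count filter through its high libraries. A call of Sln could therefore hardly be other than higher. Atp2a2, the store pump of most tissues, fell by 0.71 (edgeR adjusted p = 0.00304).

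Outside the store genes, the liver calls were spread over 3 lists. Slc34a2 fell, with 0.443 to 0.552 CPM in high and 3.74 to 4.22 CPM in low libraries (log2 difference -3.06, SE 0.20, edgeR adjusted p = 0.000119), and it was the 1 gene of the lists called in both tissues, with opposite signs. Slc30a10, a manganese carrier, fell, with 39.9 to 45.8 CPM in high and 77.7 to 94.6 CPM in low libraries (log2 difference -1.03, SE 0.11, edgeR adjusted p = 0.00103). Cyp27a1, a sterol hydroxylase that can act on vitamin D, fell, with 356 to 408 CPM in high and 537 to 599 CPM in low libraries (log2 difference -0.57, SE 0.09, edgeR adjusted p = 0.00872). Wnk4, a kinase that regulates ion channels, rose, with 3.78 to 5.97 CPM in high and 1.35 to 1.59 CPM in low libraries (log2 difference 1.71, SE 0.21, edgeR adjusted p = 0.00195). Without liver high library 1 or liver low library 1, those with pancreatic genes, 10 list genes were called in each case. Of the 14 calls, 10 held in each of the 6 fits without 1 library, and Cldn2 and Anxa2 (2 of 6 fits each), Dhcr7 and Itpr2 (1 of 6 fits each) did not.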

How the data were processed

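Libraries of 10 colorectum and 6 liver samples were analysed, grouped by the sample labels. Separate tables of estimated counts and of TPM were deposited by the authors for each tissue, with 36118 Ensembl gene IDs each. The deposited estimated counts were not whole and were rounded for the tests. The submitters' processing notes name build GRCm39, whereas an aligner, a counter and an annotation are not given in the sources. Symbols came from GENCODE M21 (GRCm38) for 35825 IDs (99.19%), and promoters from RefSeq on GRCm38.p6, used for sequence only.

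Each tissue was fitted with edgeR 4.0.16 in R 4.3.3 (TMM, filterByExpr, robust quasi-likelihood test, two-sided, Benjamini-Hochberg adjustment over all genes tested, threshold 0.05). The comparison of tissues used the 7 low libraries. CPM used TMM-scaled totals. The 9 genes and all lists were chosen with earlier results of these data known. Named beyond the 9 were called list genes, genes with set roles in the pathway and the 3 nearest profiles. In the alternatives, DESeq2 1.42.0 supplied size factors and a Wald test, and limma 3.58.1 was run on log2(TPM + 1) and log2(TPM + 0.1), with genes of at least 0.5 TPM in as many libraries as the smaller group has. Others dropped the filter or the robust step, joined all 16 libraries, used the replicate number as a block, or left out libraries. The fitting code was tested on simulated data.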

Additional observations from a re-analysis of the deposited data

Results flagged for a closer look

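In groups of 4 or 6 colorectum libraries, a single library far from the rest was found in 16 of 88 groups of values. About 1 in 20 would be found among independent, normally distributed values. These groups share the same libraries, and their genes were picked by role or result, so the count is not read against chance. In 9 of the 16 groups the far library was low library 4. That library was highest of its group for Trpv4 (37.2 CPM), Cyp24a1 (13 CPM), Casr (14.0 CPM), Calb1 (64.8 CPM), Lrp2 (195 CPM), Cldn2 (277 CPM), Cyp3a11 (18.7 CPM) and Trpv5 (3.83 CPM), and lowest for Atp2c2 (58.1 CPM). Low library 3 was far above its group for Trpv3 (3.55 CPM), Slc20a1 (153 CPM) and Calcrl (43.2 CPM). Among high libraries, library 4 was far above the rest for Atp2c2 (155 CPM), library 2 for Calcrl (19.2 CPM), library 1 for Lrp2 (2.23 CPM) and library 2 for Cyp24a1 (0.0162 CPM, from 1.0 count).

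For 2 list genes every high library lay on one side of the low libraries in the colorectum and on the other side in the liver, as for 2.08% of the 15076 genes tested in both tissues. The log2 difference of Rxra was -0.40 in colorectum, against 0.31 in liver, and that of S100a6 was 1.35 in colorectum, against -0.52 in liver. Rxra overlapped between the groups on unscaled CPM in colorectum and on TPM in liver. The difference between tissues was not tested.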

How the results depend on the processing

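For the 9 genes, the log2 difference at high against low Neu5Gc moved by less than 1 SD between replicates in 195 of 211 alternatives. The rest concerned Trpv6, Trpv3, Trpv4 and Casr, on log2(TPM + 1), which understates low genes, under the replicate block or without low libraries 3 or 4, and Trpv4 and Casr changed sign without low library 4. The SD in the colorectum includes low libraries 3 and 4, so it is wide for genes in which these stood apart. S100g thus stayed within it, though it went from -1.94 to -1.04 under the replicate block and to -0.82 on log2(TPM + 1). The number of genes called in the colorectum, 2784 in the fit described above, was 1800 with limma on log2(TPM + 1), 1806 on log2(TPM + 0.1), 1477 with no TPM filter, 482 with the replicate block and 1592 to 3654 without 1 library. The replicate block used only 8 colorectum libraries, since high libraries 5 and 6 have no low library of the same number. In the liver, 1004 became 1742 with the DESeq2 Wald test, 1625 and 1617 with limma, 446 with all 16 libraries in 1 fit, 630 with the replicate block and 387 to 935 without 1 library. For the other calcium and vitamin D genes, the 29 calls in the colorectum became 19 with limma at either pseudocount and with no count filter, 17 with no TPM filter, 45 with all 16 libraries, 10 with the replicate block and 16 to 42 without 1 library. The 14 in the liver became 22 with the DESeq2 Wald test, 8 with all 16 libraries and 10 to 15 without 1 library. The cause of these shifts was not tested. On log2(TPM + 1) the split of calls moved in the liver to 171 higher and 1454 lower, against 489 and 515 on counts, with a median of all genes of -0.16, and between tissues to 11594 higher and 1614 lower, against 6033 and 5162. Same-numbered libraries did not deviate together in the colorectum (correlations across genes of -0.10 to -0.03) or between tissues (-0.16 to 0.01), and did so in part in the liver (0.07 to 0.47). Of the libraries, 4 of 6 liver libraries and 0 of 8 colorectum libraries correlated best with their own number. The labels state no pairs, and numbers were not used as pairs in either tissue. The liver p-values therefore leave out a possible tie between same-numbered libraries. With the replicate block, 11 list genes were called in the liver. Depth limits Cyp24a1 and Casr outside low library 4, and in the liver also Trpv6, Vdr and S100g.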
